A study of Bos taurus with 6 samples.

Results

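Clusters of CpGs that were unmethylated in bull sperm and methylated in both somatic cell types were examined by reduced representation bisulfite sequencing (RRBS). RRBS reads the methylation of CpGs in short genomic fragments cut by the MspI enzyme and treated with bisulfite. A CpG was tested when it lay on chromosomes 1 to 29, was covered by 5 to 500 reads in each of 6 libraries and had a mean coverage below 50 reads. The methylation of a cell type was the percentage of methylated reads over its 2 libraries. A tested CpG qualified when this percentage was below 20% in sperm and above 80% in both monocytes and fibroblasts. It was a member when at least 10 other qualifying CpGs lay within 500 bp on either side. Of 1521652 tested CpGs, 54741 qualified and 32430 were members, or 2.13% of the tested CpGs. Members within 500 bp of each other were joined, which gave 1505 regions.

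Sperm DNA came from commercial semen straws of Holstein bulls, with 1 straw per bull. Monocytes were purified with anti-CD14 beads from the blood of Holstein cows. Fibroblasts were primary ear skin cells of Holstein cows and were the only cells grown in culture. The 6 libraries came from 6 different animals, so that sex cannot be told apart from the comparison of sperm with somatic cells, nor culture from the fibroblast cell type. The summed coverage ranged from 45884839 to 78890776 reads per library. The median coverage of the members was 18 and 21 reads in sperm, against 16 and 14 in monocytes and 18 and 22 in fibroblasts, so that 1 read moved the percentage of a single member by several points. Relative to the autosomes, the X chromosome had a median coverage of 0.556 and 0.600 for the bulls and of 0.867 to 0.923 for the cows.

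DNA methylation in mammals is carried mainly by the cytosines of CpG dinucleotides, and most CpGs outside CpG-rich promoters are methylated in somatic cells. The methylation of the germ line is erased in the primordial germ cells of the embryo and laid down again during male germ cell development, before the sperm chromatin is compacted with protamines. Regions that stay free of methylation in sperm can thus be methylated in the somatic cells that descend from the next zygote. CpGs next to each other are often read on the same fragment and usually share their methylation state.

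The members were chosen by their methylation in all 6 libraries, so the levels that follow are a description. Their average methylation was 3.46% and 3.85% in sperm, against 96.4% and 96.2% in monocytes and 93.8% and 94.2% in fibroblasts. The 2 libraries of a cell type were thus within a point of each other on average. The 22311 qualifying CpGs without enough neighbours had average levels of 5.96% ± 0.227 for sperm (SD, n = 2), 95.1% ± 0.224 for monocytes and 91.8% ± 0.296 for fibroblasts, somewhat closer to the limits than the members. In 14768 members (45.5%), neither sperm library held a methylated read. The summed sperm coverage of the members had a median of 40 reads, at which 0 methylated reads allow a methylation of up to 7.50%. This limit covers the counting error only, since the reads are not independent molecules.

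CpGs just inside and just outside the limits of the rule were taken from narrow bands on either side of each limit, which fix their level on that measure. Members with exactly 10 other qualifying CpGs nearby numbered 1788 and averaged 4.82% in sperm, and the 1888 qualifying CpGs with 9 others averaged 4.74%. Just inside the fibroblast limit, 989 CpGs averaged 81.0% in fibroblasts, and the 1066 CpGs just outside it averaged 79.1%. The same 2 sets averaged 2.83% and 2.80% in sperm. At the sperm limit, 511 CpGs just inside averaged 18.9% and 561 just outside averaged 20.8%. At the monocyte limit, 216 CpGs just inside averaged 81.1% and 197 just outside averaged 79.3%.

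The regions were short runs of CpGs. A region held a median of 17 members, with 1 to 141, and its members spanned a median of 425 bp, with at most 3546 bp. The 629 regions with 20 or more members held 63.8% of all members, and 72 regions held 50 or more. At the other end, 79 regions held fewer than 11 members, because the CpGs that counted as neighbours were not all members themselves. In 233 regions (15.5%) the members averaged below 1% in both sperm libraries, in 944 (62.7%) below 5%, and in 42 (2.79%) above 10%. Low methylation in sperm was thus near complete in some regions and partial in others. Positions listed in any library, with those 1 bp apart counted once, had a density of 7.32 per 100 bp in the regions, against 7.78 in the 14597 clusters of CpGs below 20% in all 3 cell types and 5.21 in the 7363 clusters above 80% in all 3. Without counting such pairs once, the densities were 8.13, 8.79 and 5.73, in the same order. In the density of listed positions, the regions were nearer to the clusters without methylation.

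The 20 regions with most members held 1766 members, or 5.45% of the total, on 13 chromosomes. Their coordinates are those of the UMD3.1 bovine genome. The region with most members, chr18:62378471-62380903, held 141 members over 2433 bp. These averaged 1.41% and 2.28% in sperm, against 97.4% and 97.5% in monocytes and 96.7% and 96.0% in fibroblasts. A second region nearby on the same chromosome, chr18:62407127-62408509, held 88 members at 0.874% and 1.38% in sperm, against 96.9% and 98.0% in monocytes, with 94.2% and 95.6% in fibroblasts. Both regions were nearly devoid of methylation in both bulls. The region chr25:39012143-39014543 held 110 members at 3.08% and 3.98% in sperm, against 97.8% and 97.3% in monocytes and 97.0% and 97.2% in fibroblasts. The region chr23:40588732-40590176 held 106 members at 0.560% and 1.23% in sperm, 97.3% and 98.0% in monocytes and 97.2% in both fibroblast libraries.

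Some of the 20 regions kept more methylation in sperm. The longest of all regions, chr18:63687741-63691286, held 109 members at 4.35% and 6.91% in sperm, against 96.8% and 97.1% in monocytes and 90.5% and 93.4% in fibroblasts. The region chr12:88664330-88666909 held 96 members at 4.81% and 10.0% in sperm, against 96.9% and 97.0% in monocytes and 95.5% and 92.2% in fibroblasts. Here the 2 bulls differed by 5.23 points, the largest difference between sperm libraries among the 20 regions. The region chr18:64076796-64078464 held 80 members at 7.96% and 10.3% in sperm, against 98.2% and 97.9% in monocytes and 95.7% and 97.2% in fibroblasts. The lowest sperm values of the 20 were those of chr1:157171112-157171916, whose 75 members averaged 0.519% and 0.366% in sperm, against 97.7% and 96.4% in monocytes and 93.1% and 94.9% in fibroblasts. Over the 20 regions, sperm libraries ranged from 0.366% to 10.3%, monocyte libraries from 94.8% to 98.2% and fibroblast libraries from 89.4% to 97.2%.

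**Figure D1:**
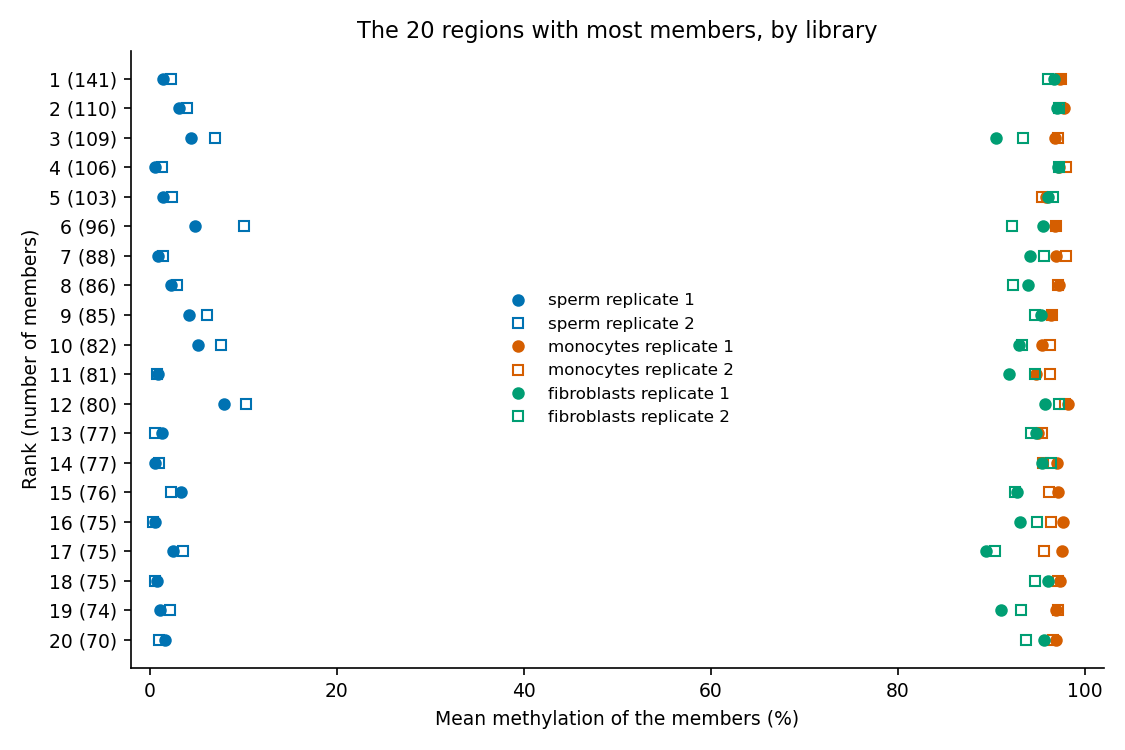
Mean methylation (%) of the members in each of the 20 regions with most members, ranked by member count on the vertical axis, with 1 symbol per library (filled circles, replicate 1; open squares, replicate 2). The sperm libraries lie between 0.366% and 10.3% and the somatic libraries between 89.4% and 98.2%, as the choice of members requires.

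At the scale of single CpGs, both of the regions with most members had tested CpGs on each side. Within 4000 bp of the centre of chr18:62378471-62380903, 23 tested CpGs lay outside the region, and these averaged 54.6% and 51.5% in sperm, against 97.2% and 97.0% in monocytes and 81.7% and 87.8% in fibroblasts. For chr25:39012143-39014543, the 37 tested CpGs outside averaged 87.4% and 88.0% in sperm, against 98.1% and 98.3% in monocytes and 91.4% and 91.0% in fibroblasts. The sperm profile therefore left the low state on both sides of each region, while the somatic averages stayed above 80% across the edges. Beside the first region, a further group of CpGs with low sperm methylation lay beyond 1 of its edges.

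**Figure D2:**
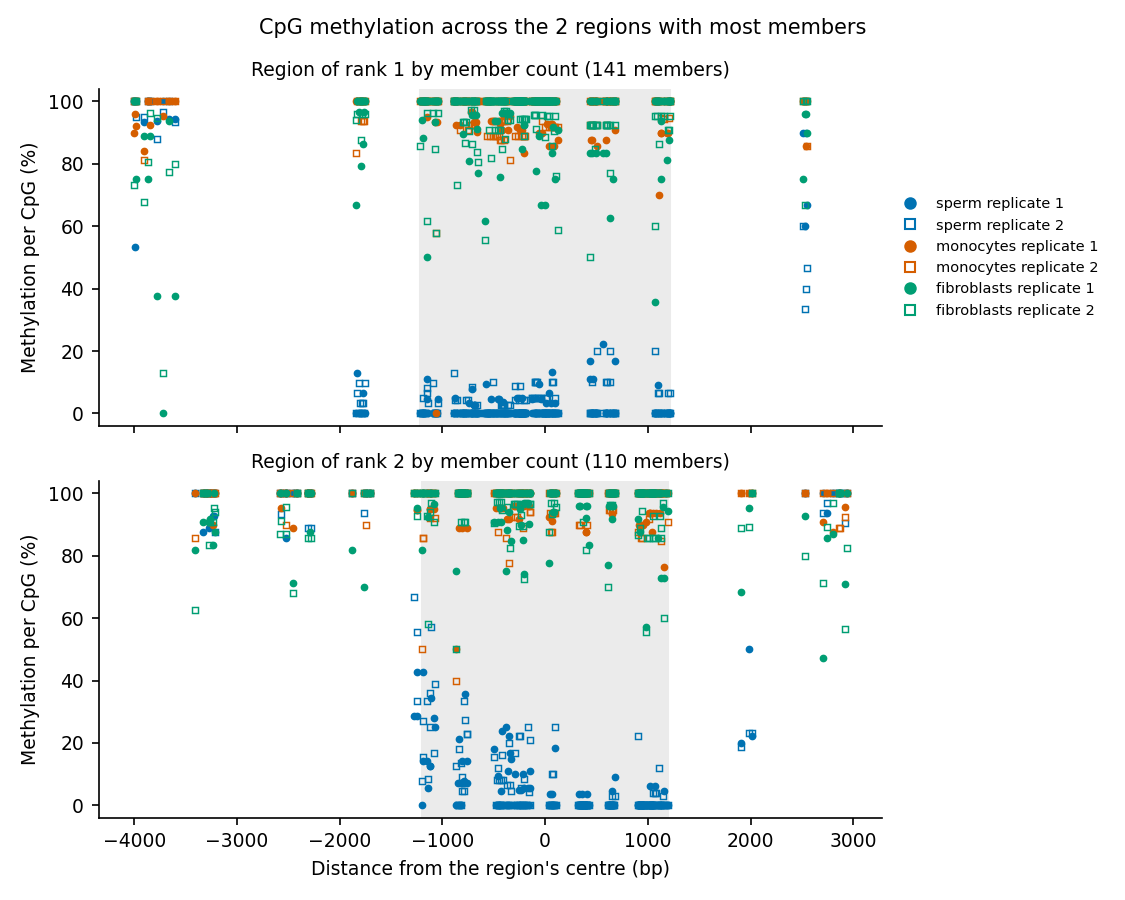
Methylation (%) of each tested CpG in the 6 libraries against the distance (bp) from the centre of the region, for the 2 regions with most members (grey, extent of the region; filled circles, replicate 1; open squares, replicate 2). Most sperm values are below 20% inside the regions, with 141 and 110 members, and higher values appear outside them, while most somatic values stay above 80%.

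The regions also held CpGs that did not meet every limit. Of 41871 tested CpGs inside the regions, 9441 were not members, and of these 54.3% missed only the fibroblast limit, 28.0% only the sperm limit and 7.40% only the monocyte limit. These tested non-members averaged 11.2% and 12.3% in sperm, against 90.3% and 89.4% in monocytes and 75.5% and 76.9% in fibroblasts. A further 20289 positions were listed in at least 1 library inside the regions but could not be tested. They averaged 4.62% and 5.21% in sperm, against 93.8% and 93.6% in monocytes and 83.6% and 85.6% in fibroblasts. The contrast between sperm and somatic cells thus held for most CpGs of a region, and the fibroblasts were the cell type in which the remaining CpGs most often missed a limit. These positions share reads with the members, so no test was made.

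Within the limits of the rule, the regions were more often higher in monocytes than in fibroblasts. In 889 regions (59.1%) the members averaged higher in both monocyte libraries than in both fibroblast libraries, and in 67 regions (4.45%) the reverse held. Among clusters above 80% in all 3 cell types, to which the same somatic limits apply, monocytes were above fibroblasts in 61.2%. The share in the regions was thus near this background. The share of the reverse is not given for those clusters, so the 67 regions are not read as a trait of the regions.

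Each CpG was then compared between cell types by a likelihood-ratio test on the summed reads, from a logistic regression, with a Benjamini-Hochberg adjusted p below 0.01 over all tested CpGs and a difference of at least 25 points. All 32430 members were called higher in monocytes than in sperm, against 11.6% of all tested CpGs. All 32430 were also called higher in fibroblasts than in sperm, against 10.7% of all tested CpGs. The test treated reads as independent, so its p-values do not measure the spread between animals. Since the limits of the rule impose a large difference on every member, nothing follows from these counts. The median difference of the members was 93.9 points for monocytes minus sperm and 91.4 points for fibroblasts minus sperm.

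To see how far the choice depended on the libraries used, the rule was applied to 3 libraries, 1 per cell type, and the CpGs chosen were read in the other 3. Of 30485 CpGs chosen on the replicate 1 libraries, 79.9% met the same limits in the replicate 2 libraries. Of 30682 CpGs chosen on the replicate 2 libraries, 79.4% met them in the replicate 1 libraries. Of all tested CpGs, 3.60% met the limits in the replicate 2 libraries and 3.51% in the replicate 1 libraries. In the libraries not used, the CpGs averaged 4.68% and 4.34% in sperm, against 95.8% and 96.1% in monocytes and 92.5% and 92.0% in fibroblasts. Most failures were in fibroblasts, where 88.5% and 86.6% of the chosen CpGs stayed above 80%, whereas 94.1% and 94.2% stayed below 20% in sperm. Both somatic libraries were above the sperm library in 99.97% and 99.95% of the chosen CpGs, against 18.47% and 18.04% of all tested CpGs. The pattern thus held in libraries whose methylation did not pick these CpGs. Those libraries were not wholly apart from the choice. Coverage in all 6 libraries set which CpGs were tested, and the limits were set with earlier results of these data known.

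Single members were also compared between the animals of the same cell type. By Fisher's exact test with the same thresholds, 0 members differed between the sperm libraries and 0 between the monocyte libraries, against 0.183% and 0.0823% of all tested CpGs. At an unadjusted p below 0.05, 265 members (0.817%) differed between the sperm libraries and 126 (0.389%) between the monocyte libraries, against 1.43% of all tested CpGs in each. Between the fibroblast libraries 6 members differed, against 0.338% of all tested CpGs, and 1294 members (3.99%) had an unadjusted p below 0.05, against 7.43%. By the likelihood-ratio test, 2 members differed between the sperm libraries, 0 between the monocyte libraries and 29 between the fibroblast libraries, against 0.307%, 0.163% and 0.68% of all tested CpGs. The limits of the rule bound how far replicates can differ, so these counts are not read against the background.

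The 6 members that differed between the fibroblast libraries lay in 6 regions, of which the first 3 in genome order are named. In chr1:154037310-154038154, 1 CpG at position 154037899 had 3 methylated reads of 11 in fibroblast replicate 1 and 31 of 31 in replicate 2. It had 0 methylated reads of 10 and of 13 in sperm and was fully methylated in monocytes, with 6 of 6 and 9 of 9 reads. The 21 members of this region averaged 87.4% and 95.9% in the fibroblast libraries, so that the difference extended beyond this CpG to a lesser degree. In chr2:124980559-124981485, 1 CpG had 40 methylated reads of 40 in fibroblast replicate 1 and 32 of 48 in replicate 2, while the 29 members averaged 97.8% and 95.0%. In chr5:120841697-120842110, 1 CpG had 9 methylated reads of 18 in fibroblast replicate 1 and 39 of 39 in replicate 2, while the 19 members averaged 91.2% and 94.6%. Neither fibroblast animal was the lower one throughout: replicate 2 was the higher in 4 of the 6 CpGs.

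Averaged over a region, the sperm libraries differed by 10 points or more in 29 regions (1.93%). The monocyte libraries did so in 22 (1.46%) and the fibroblast libraries in 22 (1.46%). These shares were not computed for other clusters, and the limits of the rule bound such differences. They are thus not read as a measure of the variation between animals. The median difference of replicate 2 from replicate 1 was 0.175 points in sperm, with 80% of the regions between -2.30 and 3.55 points. Regions with large differences in either direction among those with 20 or more members were looked up after their values were seen. In chr2:130629267-130629582, with 27 members, the sperm libraries averaged 20.3% and 3.80%, the monocyte libraries 97.5% and 96.1% and the fibroblast libraries 95.1% and 92.9%. In chr6:108501101-108501597, also with 27 members, the sperm libraries averaged 5.49% and 17.9%, the monocyte libraries 95.6% and 95.9% and the fibroblast libraries 94.4% and 93.4%. In these regions 1 bull carried most of the residual methylation, and the somatic libraries stayed above 90%. In chr25:40008199-40008716, with 23 members, the fibroblast libraries averaged 78.2% and 95.0%, the monocyte libraries 95.3% and 91.0% and the sperm libraries 7.10% and 5.42%. There the fibroblasts of 1 cow stood apart from all other somatic libraries. In chr2:136210193-136210732, with 24 members, the monocyte libraries averaged 98.7% and 82.2%, the fibroblast libraries 96.2% and 96.6% and the sperm libraries 1.23% and 5.55%.

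The CpGs around the regions show how far the difference extended. Bands of distance exclude their lower bound, apart from the first. Within 500 bp of an edge the CpGs were in reach of the rule and either failed a limit or had too few neighbours, so these bands are a description. Sperm methylation was higher with increasing distance from the edge of the nearest region, going from 12.6% ± 0.436 (SD, n = 2) at 1 to 100 bp to 19.5% ± 1.09 at 100 to 250 bp, 26.8% ± 1.62 at 250 to 500 bp and 39.1% ± 1.29 at 500 to 1000 bp. It reached 65.0% ± 1.30 at 1000 to 2000 bp and 68.4% ± 0.647 at 2000 to 5000 bp. Monocytes went the other way, from 87.9% ± 1.03 at 1 to 100 bp to 66.7% ± 0.578 at 500 to 1000 bp, and were at 68.5% ± 0.199 at 2000 to 5000 bp. Fibroblasts went from 74.7% ± 0.768 at 1 to 100 bp to 58.3% ± 0.359 at 500 to 1000 bp and 60.8% ± 0.528 at 2000 to 5000 bp. Beyond 1000 bp the sperm libraries thus lay within the range of the somatic cell types or above it. The bands mixed unlike flanks. At 500 to 1000 bp, 1609 CpGs lay nearest to the 90 regions with a cluster below 20% in every cell type within 2000 bp. They averaged 13.3% in monocytes and 13.1% in fibroblasts. The 4416 CpGs near the other 1415 regions averaged 86.1% and 74.8%. Monocytes there were at 86.1% at 1000 to 2000 bp and 66.8% at 2000 to 10000 bp. The monocyte average of 66.7% at 500 to 1000 bp thus mixed CpGs at 13.3% and at 86.1% and is not read as general. Bands within 500 bp were not split, so the course from 87.9% was not followed in either set.

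At 500 to 1000 bp, 11.4% of the 6025 tested CpGs still met the 3 limits on methylation, and the libraries averaged 40.0% and 38.2% in sperm, against 67.1% and 66.2% in monocytes, with 58.0% and 58.6% in fibroblasts. Both sperm libraries lay below all 4 somatic libraries, and sperm minus somatic was -23.4 points (p = 0.0667 in a two-sided exact permutation test, which cannot give less with 2 against 4 libraries). CpGs beyond 500 bp that clustered under the rule had become members themselves, so these flanks are not wholly free of the rule. Over 500 to 2000 bp, sperm averaged 54.7% ± 1.30, monocytes 68.7% ± 0.500 and fibroblasts 60.8% ± 0.282. Sperm minus somatic was -10.0 points (p = 0.133, same test by exact permutation). At 2000 to 10000 bp the averages were 64.9% ± 0.480 in sperm, 65.6% ± 0.135 in monocytes and 57.7% ± 0.556 in fibroblasts, and sperm was 3.26 points above the somatic libraries (exact permutation test, p = 0.467). At this distance sperm lay between the somatic cell types. With this design no comparison of sperm with somatic libraries could reach 0.05. Of the 1505 regions, 892 had a tested CpG at 500 to 2000 bp nearest to them, so the flanks of the others were not measured.

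**Figure D3:**
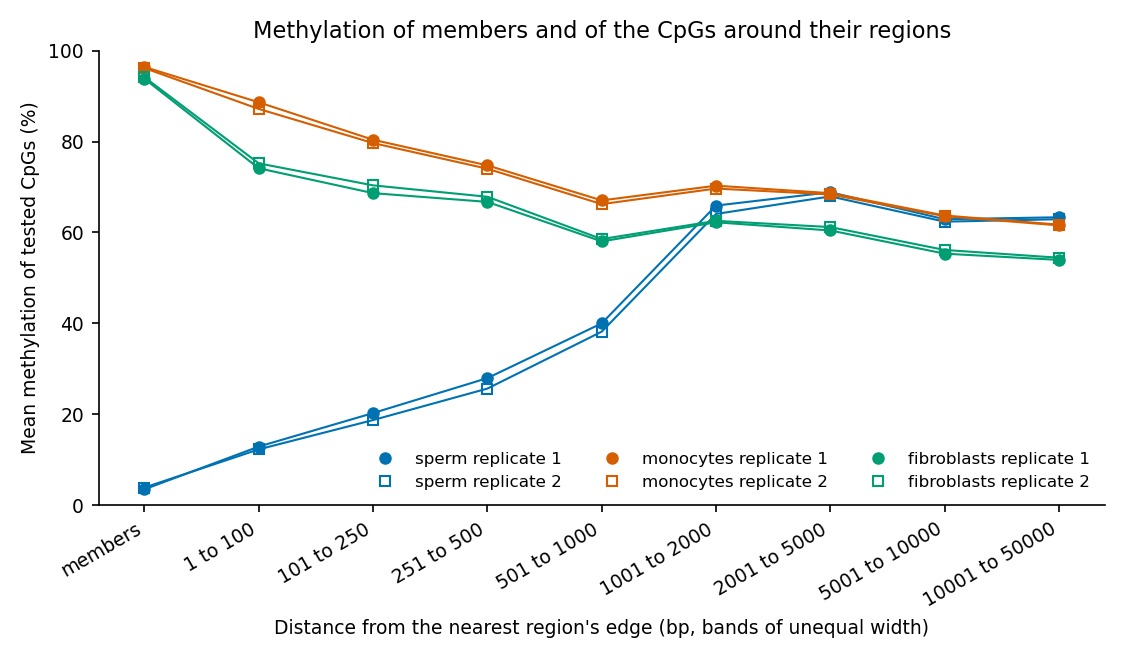
Mean methylation (%) of the members and of tested CpGs in bands of distance (bp) from the edge of the nearest region, with 1 line per library (filled circles, replicate 1; open squares, replicate 2). The sperm libraries rise from below 4% in the members to about 65.0% at 1000 to 2000 bp, where they lie between monocytes and fibroblasts.

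CpG clusters without methylation in any of the 3 cell types, the usual state of CpG island promoters, lay close to a small share of the regions. Of the regions, 32 (2.13%) lay within 500 bp of such a cluster, against 0.0951% of the clusters methylated in all 3 cell types. Of the regions, 90 (5.98%) lay within 2000 bp of one, against 3.52%. Within these 2 distances the regions thus had such a cluster nearby more often than the clusters methylated in all 3 cell types did, without a test. Within 10000 bp the order was reversed, at 25.4% of the regions against 28.6%. Clusters methylated only in sperm had such a cluster within 2000 bp in 10.5%, more often than the regions, and within 500 bp in 0.585%, less often. A cluster methylated in all 3 cell types lay within 2000 bp of 132 regions (8.77%), some of which can be the same. At 500 to 1000 bp from the 90 regions, sperm averaged 6.27% ± 0.617, monocytes 13.3% ± 0.808 and fibroblasts 13.1% ± 0.553. Near the other 1415 regions, sperm averaged 51.0% ± 1.54, monocytes 86.1% ± 0.494 and fibroblasts 74.8% ± 0.288. At 1000 to 2000 bp from these 1415 regions the levels were 81.3% ± 1.44 in sperm, 86.1% ± 0.241 in monocytes and 76.5% ± 0.353 in fibroblasts. Since the regions were split by the clusters around them, the higher methylation around the 1415 regions follows in part from the split. The members themselves averaged 3.31% in sperm in the 90 regions and 3.68% in the others.

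In the 629 regions with 20 or more members, the levels the rule selected were also read by distance from the nearest edge. Members within 25 bp of an edge averaged 4.25% and 4.24% in the sperm libraries. The averages were 3.42% and 3.69% at 25 to 100 bp, 3.02% and 3.44% at 100 to 250 bp, 3.11% and 3.73% at 250 to 500 bp, and 2.45% and 3.59% further in. Sperm methylation was thus highest next to the edges and did not follow a steady course further in. The monocyte averages stayed between 96.0% and 96.8% at all depths and the fibroblast averages between 93.5% and 94.9%.

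Coverage was not part of the choice beyond its limits, and it differed between sperm and somatic cells at the members. The mean coverage of the members, divided by the mean over all tested CpGs of the library, was 1.13 in both sperm libraries, against 0.923 and 0.935 in monocytes and 0.884 and 0.895 in fibroblasts. Every somatic library was below both sperm libraries, which were 1.24 times as high on average, a difference of 0.221 (p = 0.0667 by exact permutation, again the lowest that can be had). The same ratio of sperm to somatic libraries was 1.12 for the scattered qualifying CpGs, 0.994 for clusters unmethylated in all 3 cell types and 1.02 for clusters methylated in all 3. In the 2632 clustered CpGs methylated only in sperm, which show the opposite pattern, the ratio was 0.854. The cell type with the lower methylation thus had the higher relative coverage in both kinds of cluster.

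By region, both sperm libraries were above all somatic libraries in relative coverage in 626 regions (41.6%) and below all of them in 12 (0.797%). The share with sperm above was 7.04% in clusters unmethylated in all 3 cell types and 9.29% in clusters methylated in all 3. The share with sperm below is not given for these clusters, so the 12 regions have no background. Bisulfite conversion leaves an unmethylated fragment with fewer cytosines than a methylated one, and the part of this in the coverage was not tested. PCR ran for 12 cycles in the monocyte libraries and 14 in all others, and its part was not tested.

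**Figure D4:**
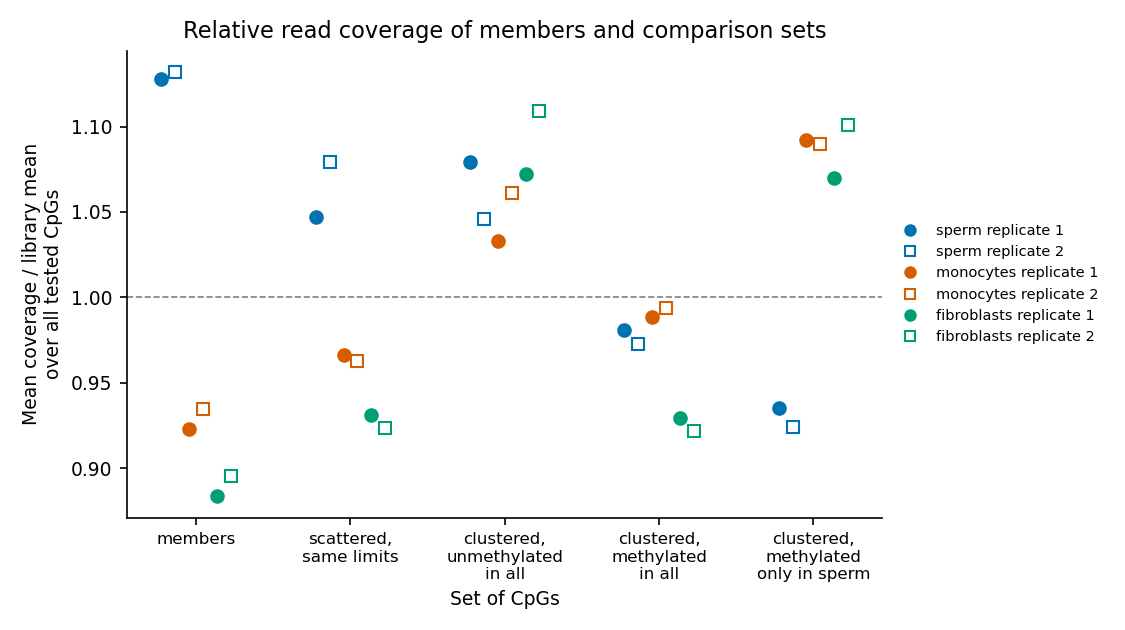
Mean coverage of each set of CpGs divided by the mean coverage of all tested CpGs of the same library, with 1 symbol per library (filled circles, replicate 1; open squares, replicate 2; dashed line, a ratio of 1). At the members the sperm libraries are at 1.13 and the somatic libraries between 0.884 and 0.935, and the order is reversed in the clusters methylated only in sperm.

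The members were not spread evenly along the chromosomes. Chromosomes were divided into 10 equal parts up to the highest position listed, and the last part, at the end with the highest coordinates, held 47.3% of the members. It held 33.8% of all tested CpGs, 61.8% of the CpGs in clusters methylated in all 3 cell types and 17.4% of those in clusters unmethylated in all 3. On 27 of 29 chromosomes the last part held a larger share of the members than of the tested CpGs. The exceptions were chromosome 11, with 49.0% of the members against 53.6% of the tested CpGs, and chromosome 29, with 22.1% against 48.0%. The members thus lay towards this end more than tested CpGs did, and less so than the clusters methylated in all 3 cell types.

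Members made up 0.958% of the tested CpGs on chromosome 11 and 4.04% on chromosome 24, the lowest and highest of the 29, with a median of 2.06%. Chromosome 18 held the most members, 2751 in 107 regions, or 3.30% of its tested CpGs. Of the regions, 676 (44.9%) lay within 100000 bp of another region, in 249 groups. This share was not computed for other clusters, so it is not read as a trait of the regions. The 3 largest groups were picked by their number of regions once the positions were known. The group at chr18:65797609-66001717 held 11 regions and 325 members, at 5.83% and 7.12% in sperm, against 97.2% and 96.8% in monocytes and 94.0% and 94.2% in fibroblasts. The group at chr18:62336725-62536376 held 10 regions and 390 members, including the region with most members, at 2.37% and 2.65% in sperm, against 97.0% and 97.3% in monocytes and 95.0% and 95.4% in fibroblasts. The group at chr9:103913864-104149766 held 9 regions and 269 members, at 5.15% and 4.68% in sperm, against 96.3% and 95.3% in monocytes and 93.7% and 94.5% in fibroblasts. These levels are those the rule selected, so they describe the groups only.

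**Figure D5:**
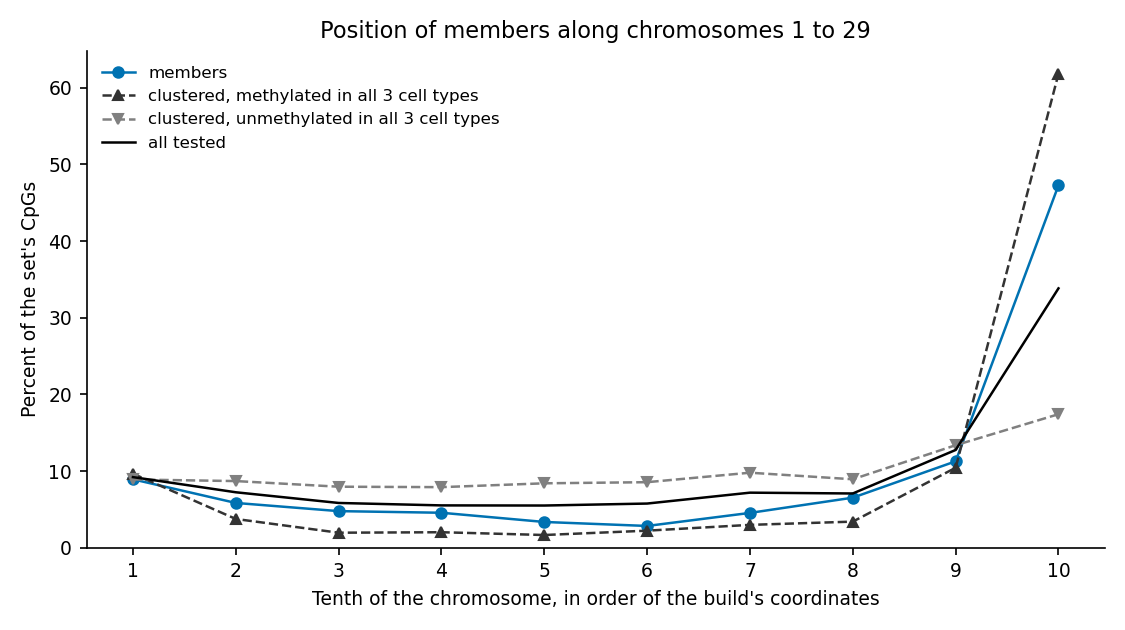
Percent of the CpGs of each set in 10 equal parts of chromosomes 1 to 29, ordered by coordinate. The last part holds 47.3% of the members, between the 33.8% of all tested CpGs and the 61.8% of the clusters methylated in all 3 cell types.

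The spacing of the members was also examined. Neighbouring members were a median of 11 bp apart, against 13 bp for all tested CpGs, 9 bp in clusters unmethylated in all 3 cell types and 15 bp in clusters methylated in all 3. Of all pairs of members 3 to 98 bp apart, 37.1% were separated by a multiple of 3 bp, against 35.0% of pairs of tested CpGs, 35.1% in clusters unmethylated in all 3 cell types and 35.7% in clusters methylated in all 3. Of the distances themselves, 33.3% are multiples of 3. CpGs 2 bp apart were nearly absent, at 0.0432% of neighbouring members and 0.0422% of neighbouring tested CpGs, against 0.965% of neighbours within single libraries. The libraries listed 881127 pairs of positions 1 bp apart, never both in the same library, and 6250 of these pairs lay inside the regions. A CpG listed at positions that differ by 1 bp between libraries could not reach the tested set.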

How the data were processed

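The cell type given by the labels set the groups of the RRBS libraries: 2 of sperm, 2 of monocytes and 2 of fibroblasts. The authors selected MspI fragments of 40 to 290 bp, sequenced 75 bp paired-end reads, and per the labels used Trim Galore 0.3.7, Bismark 0.14.3 with Bowtie and the UMD3.1 genome. For each CpG the deposited tables give the coverage as read counts and the methylated share as a percent of these reads, without normalization. Methylated reads were recovered as the nearest whole number to coverage times this percent. Averages over CpGs give each CpG the same weight.

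The members and the sets compared with them were chosen with earlier results of these data known. Regions are named by 1 rule: the 20 with most members, and up to 3 per cell type with the most members called between replicates. Exceptions are marked in the text. Sperm and somatic libraries were set against each other by two-sided exact permutation. Single CpGs were compared by likelihood-ratio or Fisher's exact tests over all tested CpGs. The tests of single CpGs were tried on simulated reads without variation between animals, so their behaviour under such variation was not tested. The replicates are different animals whose numbers do not pair them across cell types, and the spread between animals is poorly known from 2 per cell type. Alternatives were other coverage minimums, thresholds, neighbour counts, windows and tests, and leaving out each library. The software was matplotlib 3.10.9, numba 0.67.0, pandas 2.3.3, numpy 2.4.6 and scipy 1.17.1 under Python 3.11.15.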

Additional observations from a re-analysis of the deposited data

Results flagged for a closer look

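The same limits were met by CpGs outside chromosomes 1 to 29, which enter no comparison above. On the X chromosome, 795 CpGs in 32 regions met them, or 2.91% of 27351 tested there, and they averaged 1.89% and 1.27% in sperm, against 96.3% and 95.8% in monocytes and 93.1% and 93.5% in fibroblasts. The sperm came from bulls, with 1 X chromosome, and the somatic cells from cows, with 2. Sex therefore cannot be told apart from cell type in the X-linked values. On the unplaced sequences, 462 CpGs in 20 regions met the limits, or 5.10% of 9051 tested there. They averaged 1.86% and 2.35% in sperm, against 96.3% and 96.5% in monocytes, with 93.5% and 93.0% in fibroblasts. Both counts are of CpGs found in data outside those analysed above.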

How the results depend on the processing

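The member count of 32430 and the region count of 1505 follow the limits. A coverage minimum of 10 gave 16450 members in 923 regions, thresholds of 10 and 90 percent 14111 in 752, and at least 20 other CpGs 17081 in 588, all of these members being among the 32430. With at least 5 others the region count was 2826. With a coverage minimum of 10, 20349 of the members remained tested, and all of these were called against sperm in both comparisons. Between the sperm replicates, 2 members were called by the likelihood-ratio test and 1 with a coverage minimum of 10, against 0. Between the fibroblast replicates, the likelihood-ratio test called 29 against 6. The shares that met the limits in libraries not used rose to 82.9% and 82.6% with a coverage minimum of 10. The remaining 78 of 92 alternatives kept the direction of each difference and stayed within 1.5 times of each count. Some of these could not move. Taking 1 position per CpG left the tested CpGs unchanged, and a library of a cell type outside a comparison does not enter it. The limits of the rule also largely impose the calls of members against sperm. The 78 are thus not read as a measure of stability. Joining positions listed 1 bp apart, chosen after seeing the data, gave 35159 members in 1599 regions. With the replicate number as a block (Cochran-Mantel-Haenszel test with a replicate block), 32430 members were called in both comparisons with sperm. The limits of the rule impose this, and the replicate numbers pair no animals, so nothing follows from it. Of all tested CpGs, 11.2% were then called higher in monocytes and 10.3% in fibroblasts. The differences in flank methylation ranged from -11.5 to -6.65 points at 500 to 2000 bp and from 1.82 to 4.59 at 2000 to 10000 bp over all alternatives, and that in relative coverage from 0.204 to 0.256. The depth limits single CpGs: a member without methylated sperm reads can carry up to 7.50% at the median coverage.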
